A study of Rattus norvegicus with 24 samples.

Results

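The genes described here are 9 that mark the GABAergic projection neurons of the striatum, the principal cells of the nucleus accumbens (NAc). They were taken by gene symbol from the 23950 genes listed for every library: Tac1 and Isl1 of the direct pathway, Adora2a and Gpr6 of the indirect pathway, and Ppp1r1b, Pde10a, Bcl11b, Foxp1 and Meis2, which neurons of both pathways use. Each symbol named a single row in every library. The members, and the lists of other genes set beside them, were chosen with earlier results of these data known. RNA came from the NAc of Sprague Dawley rat pups at postnatal day (P) 14, with 24 libraries from 24 pups, 4 in each of 6 groups, and the pups of a group came from separate litters. The question behind the design was how exposure to oxycodone (oxy), an opioid analgesic, in the womb or after birth affects the exposed F1 pups and their F2 offspring.

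For the in utero group (IUO), F0 dams were gavaged with oxy in rising doses that ended at 15 mg/kg/day, were then mated, and stayed on the drug through gestation and nursing until weaning. For the postnatal group (PNO), F0 dams received 15 mg/kg/day by gavage from birth to weaning, so that F1 pups met the drug through milk only. The saline groups (SAL) served as controls. F1 animals were never dosed directly, and F1 offspring of each lineage were bred to give F2 pups, which received no drug. F1 IUO exposure thus includes the nursing period, and no group was exposed in the womb alone. The labels give no sex for the pups, tissue was cut out with a brain matrix, and each library is 1 bulk sample in which fewer cells of a type and less RNA per cell cannot be told apart.

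Projection neurons of the striatum receive glutamate from cortex and thalamus and dopamine from the midbrain. Direct-pathway neurons carry the D1 dopamine receptor and release substance P and dynorphin, whereas indirect-pathway neurons carry the D2 dopamine receptor and the adenosine A2A receptor and release enkephalin. Both types turn receptor input into changes of cyclic AMP (cAMP), which D1 and A2A receptors raise and D2 receptors lower.

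In F1 pups, both indirect-pathway members and 3 of the 5 members shared by both pathways were higher after in utero than after postnatal exposure, by 1.57 to 1.82 times in mean level, while the direct-pathway genes Tac1 and Isl1 were nearly level (1.05 and 1.03 times). Of all genes tested, 16.5% passed in that comparison and 10.1% were higher in IUO. Of 8 further direct-pathway genes 1 passed there, Pdyn, also higher in IUO (log2 fold change 0.93), and the median of the 8 was 0.32. In F2 pups of the in utero lineage, Ppp1r1b and Pde10a were lower than in F2 saline pups (both 0.63 times), against 8.49% of all genes that passed there and 4.97% that were lower. These differences passed an unadjusted p under 0.05, and in none of the 9 pairwise comparisons did a member pass an adjusted p under 0.05 by limma. Over all genes tested the share with an adjusted p under 0.05 was 0.133% in F1 IUO against F1 PNO, 0.00576% in F2 PNO against F2 SAL, 0.0343% in F2 against F1 SAL, 0.0288% in F2 against F1 PNO, and 0 in the other comparisons. Levels of thalamus or cortex markers in the same libraries differed alongside several of these genes and are given beside them.

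Upstream sequence is shown for 4 members. Of these, Gpr6, Pde10a and Foxp1 were higher in F1 pups after in utero than after postnatal exposure, and Tac1, a direct-pathway member, was not. Windows of 300 bases around the transcription start were given for 5 of the 9 members (Tac1, Isl1, Gpr6, Foxp1 and, with 2 windows, Pde10a) in RefSeq on the GRCr8 build. Below are the 250 bases before the start, read 5′ to 3′ on the strand of the gene. Capitals mark 4 motifs searched on both strands: the cAMP response element TGACGTCA, its half-site TGACG, the MEIS motif TGACAG and the forkhead motif TGTTTAC.
Gpr6, chr20:46075252-46075501, minus strand: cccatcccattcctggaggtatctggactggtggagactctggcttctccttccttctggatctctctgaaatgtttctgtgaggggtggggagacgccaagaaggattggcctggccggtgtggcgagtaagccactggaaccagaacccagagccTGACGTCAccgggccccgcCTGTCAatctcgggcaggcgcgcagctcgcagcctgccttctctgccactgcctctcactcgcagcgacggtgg
Pde10a, chr1:54765669-54765918, minus strand: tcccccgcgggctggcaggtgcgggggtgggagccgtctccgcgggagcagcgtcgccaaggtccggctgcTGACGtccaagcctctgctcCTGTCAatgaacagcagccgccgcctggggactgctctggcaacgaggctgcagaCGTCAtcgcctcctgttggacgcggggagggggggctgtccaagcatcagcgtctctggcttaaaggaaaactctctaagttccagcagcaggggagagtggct
Foxp1, chr4:133353281-133353530, minus strand: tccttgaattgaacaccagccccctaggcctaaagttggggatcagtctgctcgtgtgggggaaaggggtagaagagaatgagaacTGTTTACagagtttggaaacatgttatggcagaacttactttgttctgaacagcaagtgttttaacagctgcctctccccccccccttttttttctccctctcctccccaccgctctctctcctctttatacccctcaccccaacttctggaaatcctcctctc
Tac1, chr4:36645333-36645582, plus strand: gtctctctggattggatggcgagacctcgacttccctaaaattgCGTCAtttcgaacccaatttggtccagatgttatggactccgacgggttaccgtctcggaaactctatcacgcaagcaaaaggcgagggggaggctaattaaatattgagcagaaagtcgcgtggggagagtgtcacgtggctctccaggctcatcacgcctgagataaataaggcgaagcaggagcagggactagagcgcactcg

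The upstream sequence of Gpr6 held the full cAMP response element, at bases 158 to 165, and this was the only one among the 6 member windows. That element was found in 1.83% of all 33469 windows. Each full element also contains the half-site on both strands. The half-site occurred in 21.2% of all windows and in those of Gpr6, Tac1 and the first Pde10a window. The MEIS motif, in 19.0% of all windows, lay in the windows of Gpr6 (bases 177 to 182) and Pde10a (bases 92 to 97), and the forkhead motif, in 3.78%, at bases 87 to 93 of Foxp1. These are matches of letters, and binding was not measured.

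All values below are FPKM, fragments per kilobase of transcript scaled to the sequenced fragments of the library, as the authors deposited them. This unit is scaled for gene length, so levels can be set side by side between genes. Ppp1r1b (Ensembl ENSRNOG00000028404), which encodes DARPP-32, an inhibitor of protein phosphatase 1 that relays dopamine and cAMP signals, had a mean of 355 FPKM over the 24 libraries and ranked 175 among the 23950 genes. Meis2 (ENSRNOG00000004730), a homeodomain transcription factor, Tac1 (ENSRNOG00000007374), the precursor of substance P, and Adora2a (ENSRNOG00000001302), the adenosine A2A receptor, followed with means of 61.7, 60.9 and 55.1 FPKM. Foxp1 (ENSRNOG00000009184), a forkhead transcription factor, had 26.7 FPKM. Pde10a (ENSRNOG00000011310), a phosphodiesterase that breaks down cAMP and cGMP, had 19.2 FPKM, and Gpr6 (ENSRNOG00000049580), a receptor coupled to the stimulatory G protein, had 14.7 FPKM. Isl1 (ENSRNOG00000012556), a LIM-homeodomain factor of direct-pathway and cholinergic neurons, had the lowest mean, 5.25 FPKM. Of these 8 genes, Isl1 varied least from the lowest to the highest library (2.61 times) and Pde10a most (8.01 times).

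Bcl11b (ENSRNOG00000005776), a zinc finger factor also called Ctip2 that is also made by deep-layer cortical neurons, did not behave as 1 population of values. It was between 5.55 and 28.45 FPKM in 7 libraries and between 0.05 and 2.38 FPKM in the other 17. The 7 libraries were F1 SAL replicates 2 and 4 (24.1 and 26.0), F1 PNO replicate 1 (28.45), F2 SAL replicate 4 (17.2), F2 PNO replicate 4 (17.8) and F2 IUO replicates 3 and 4 (5.55 and 12.1). They came from 5 of the 6 groups, so the division followed no exposure or generation, and the 4 F1 IUO libraries were all low (0.84 to 2.38). Its median was 1.47 FPKM against a mean of 6.30, and it is left out of the correlations and of the plotted fold changes but counts among the 9 members, in their medians, in the 45 neighbouring pairs and in the 81 exact tests below. FPKM summed per gene do not show whether fragments of Bcl11b were given to another transcript in the 17 low libraries, so its low values may not be low expression, and this was not tested.

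The order of groups was gene-specific. F1 IUO had the highest mean of Adora2a, Gpr6, Pde10a and Foxp1, and F1 PNO had the lowest mean of Adora2a, Gpr6 and Ppp1r1b. F2 IUO had the lowest mean of Tac1, Isl1, Pde10a, Foxp1 and Meis2. Neighbours in these orders did not separate: in all 45 pairs of neighbouring groups the libraries overlapped, and the smallest p of an exact permutation test was 0.114. Over the 24 libraries, Adora2a ran from 26.6 FPKM in F2 IUO replicate 1 to 101 FPKM in F1 SAL replicate 3, and Ppp1r1b from 167 FPKM in F2 IUO replicate 3 to 549 FPKM in F1 SAL replicate 3.

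**Figure D1:**
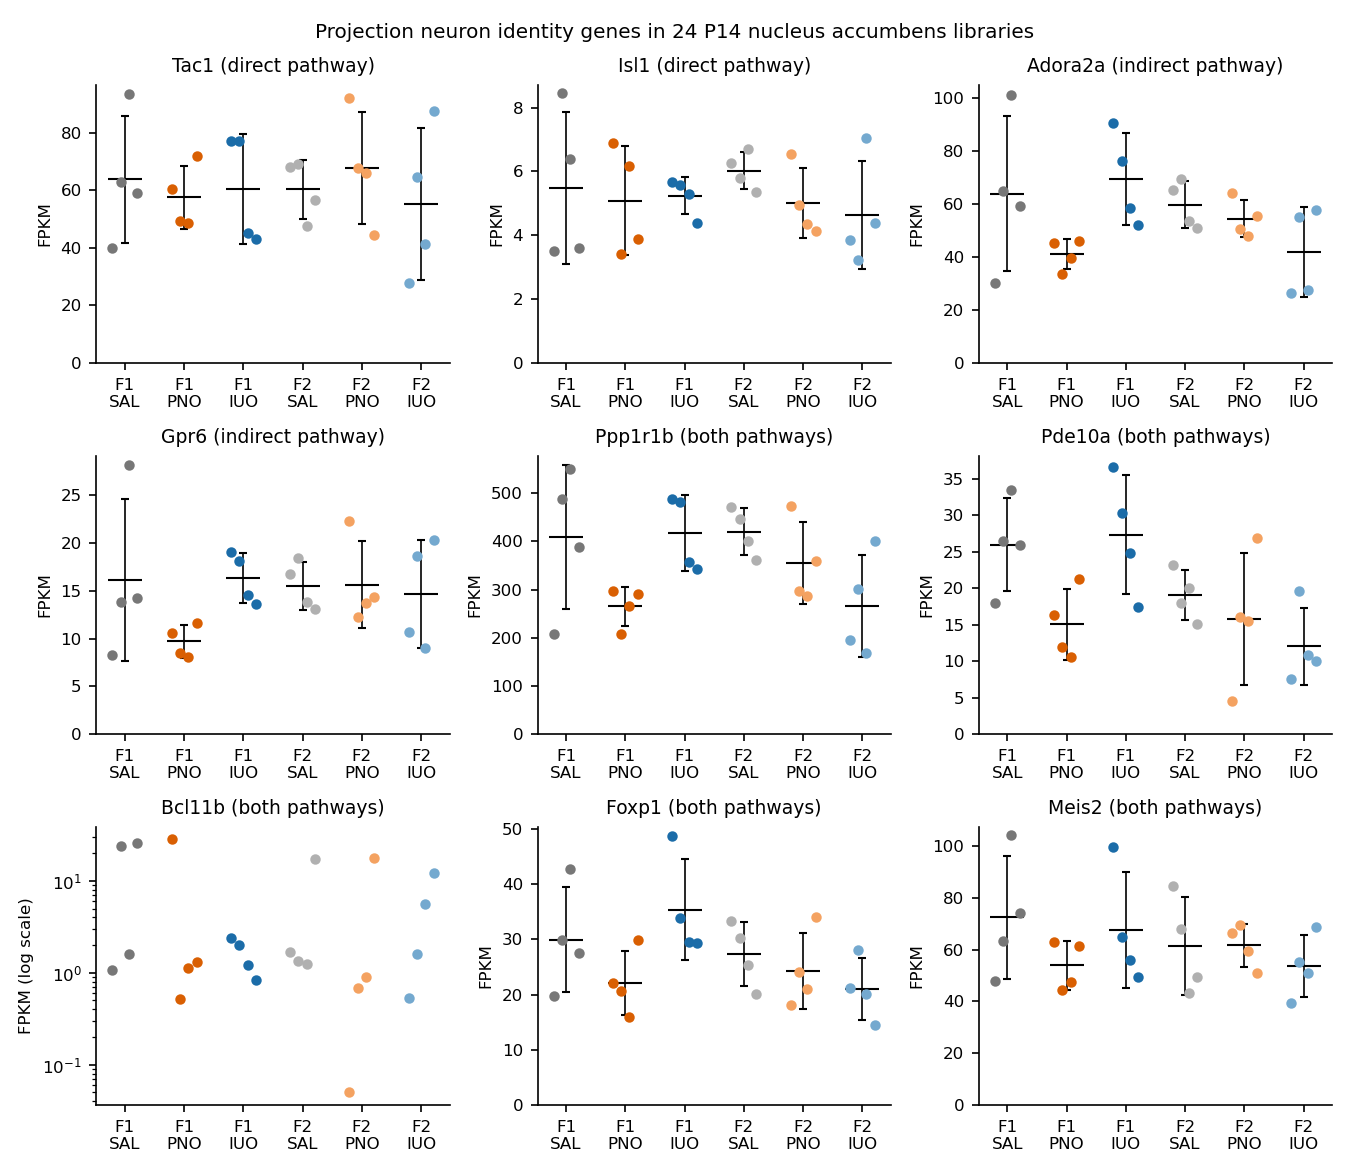
FPKM of each of the 9 genes (y axis, log scale for Bcl11b only) in the 24 libraries, by group on the x axis. Each point is 1 library, and black bars give the group mean ± SD (n = 4) except for Bcl11b, whose values lie in 2 separate ranges. Adora2a, Gpr6 and Ppp1r1b lie low and close together in F1 PNO, and no F1 IUO library overlaps them.

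F1 IUO was compared with F1 PNO to ask whether the timing of exposure matters in the exposed pups. Adora2a was 90.6, 76.1, 58.4 and 52.3 FPKM in the F1 IUO libraries and 45.2, 33.8, 39.5 and 46.2 FPKM in F1 PNO. Gpr6 was 19.0, 18.1, 14.6 and 13.6 FPKM in F1 IUO against 10.6, 8.50, 8.05 and 11.6 FPKM in F1 PNO. Every F1 IUO library exceeded every F1 PNO library for both of these indirect-pathway genes. The log2 fold changes were 0.73 ± 0.18 (SE) for Adora2a and 0.75 ± 0.16 for Gpr6, with adjusted p = 0.131 and 0.107 by limma. Exact permutation gave p = 0.0286 for each, which is the smallest value that 4 against 4 libraries allow.

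Among the genes of both pathways, Ppp1r1b was 488, 483, 357 and 343 FPKM in F1 IUO and 296, 208, 266 and 291 FPKM in F1 PNO, again without overlap. Its log2 fold change was 0.65 ± 0.17 (adjusted p = 0.134). Pde10a was 36.6, 30.3, 24.9 and 17.4 FPKM in F1 IUO and 16.4, 11.9, 10.6 and 21.3 FPKM in F1 PNO. The highest PNO library of Pde10a lay above the lowest IUO library, and the log2 fold change was 0.86 ± 0.27 (adjusted p = 0.180). Foxp1 was 48.7, 33.9, 29.6 and 29.3 FPKM in F1 IUO and 22.2, 20.7, 15.9 and 29.8 FPKM in F1 PNO, a log2 fold change of 0.68 ± 0.21 (adjusted p = 0.185) with overlap at 1 PNO library.

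The remaining members did not pass the test. Tac1 was 77.1, 77.2, 45.03 and 43.2 FPKM in F1 IUO and 60.35, 49.5, 48.6 and 71.9 FPKM in F1 PNO, so the IUO libraries lay on both sides of the PNO range (log2 fold change 0.04 ± 0.23). Isl1 lay between 4.40 and 5.67 FPKM in F1 IUO and between 3.41 and 6.88 FPKM in F1 PNO (0.09 ± 0.24), and Meis2 differed by 0.28 ± 0.22.

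In all, 5 of the 9 members passed an unadjusted p under 0.05 in this comparison, each higher in IUO, against 16.5% of the 17306 genes tested, 10.1% of them higher in IUO. The groups did not overlap for 3 members, against 6.26% of all genes that were higher without overlap. The median log2 fold change was 0.65 over the 9 members and 0.03 over all genes tested. All 5 members kept an unadjusted p under 0.05 whichever library was left out in turn. Of 6 thalamus markers 5 were lower in IUO (Slc17a6 -1.84, Lef1 -1.37 and Gbx2 -1.70 foremost), and of these Lhx9 was listed at 0 in 3 of the 24 libraries. Their summed level was 25.2 to 141 FPKM in F1 IUO and 117 to 304 FPKM in F1 PNO. Of 6 hypothalamus markers 5 were higher in IUO (Avp 3.80, Oxt 3.77 and Otp 2.81 foremost), at a summed 43.8 to 158 FPKM against 3.99 to 12.7 FPKM. When the mean thalamus marker level entered the fit as a covariate (a setting picked once the data had been seen), 1 member (Gpr6, log2 fold change 0.47, unadjusted p = 0.0497) passed, while Adora2a, Ppp1r1b, Pde10a and Foxp1 were at 0.25, 0.25, 0.35 and 0.41 and did not. The part of these markers in the difference was not tested further. Of the other marker lists, cortical, astrocyte, oligodendrocyte and choroid plexus genes had no member that passed, 2 of 5 microglia genes (Csf1r 0.48 and C1qa 0.51) were higher in IUO, and of 6 interneuron genes Chat, which makes acetylcholine, was higher (0.50).

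Other genes of the same neurons, from lists set beside the members, were counted in the same comparison, where 10.1% of all genes tested were higher in IUO. These lists too were chosen with earlier results of these data known, so their counts are not independent support for the members. Of 6 further indirect-pathway genes 5 were higher in IUO, among them Penk, the enkephalin precursor (263 against 171 FPKM in mean, log2 fold change 0.62), and the transcription factors Six3 (0.91) and Sp9 (0.84), which guide the development of indirect-pathway neurons. Of 8 further direct-pathway genes 1 was higher, Pdyn, the dynorphin precursor (46.6 against 24.4 FPKM, 0.93). Of 13 further genes of both pathways 8 were higher, among them Adcy5, the main adenylyl cyclase of the striatum (71.8 against 43.3 FPKM, 0.74), the phosphodiesterase Pde1b (0.58) and the phosphatase Ptpn5 (0.41). None of the genes of these 3 lists had an adjusted p under 0.05. The median log2 fold changes of the 3 lists were 0.76, 0.32 and 0.40, in the order given.

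F1 PNO was compared with F1 SAL to ask what exposure through milk alone changes. Pde10a was the 1 member of 9 that passed, against 13.9% of 17494 genes, 7.83% of them lower in PNO. It was 16.4, 11.9, 10.6 and 21.3 FPKM in F1 PNO and 17.95, 26.5, 33.4 and 25.95 FPKM in F1 SAL, a log2 fold change of -0.80 ± 0.25 (adjusted p = 0.245 by limma), and only the lowest saline library lay below the highest PNO library. Adora2a (-0.52 ± 0.31), Gpr6 (-0.61 ± 0.32) and Ppp1r1b (-0.54 ± 0.28) had negative values that did not pass. For Ppp1r1b the F1 SAL libraries were 207, 489, 549 and 389 FPKM, with replicate 1 below all 4 PNO libraries. Without F1 SAL replicate 1, 6 members passed, without F1 PNO replicate 4, 2 passed, and with the thalamus marker level as a covariate none did. F1 SAL replicate 1 had a mean log2 thalamus marker level of 3.89, against 0.93 to 3.15 in the other F1 SAL libraries and 3.61 to 4.81 in F1 PNO, and all 6 thalamus markers were higher in PNO than in SAL at an unadjusted p under 0.05, led by Lef1 (1.31), Lhx9 (2.89) and Tcf7l2 (2.02). Of the 6 hypothalamus markers 3 were lower in PNO (Otp -2.42, Avp -1.81 and Oxt -1.95), at a summed 3.99 to 12.7 FPKM against 10.4 to 57.2 FPKM. Of 5 microglia genes 2 were lower (Csf1r -0.45 and Cx3cr1 -0.75), at 81.7 to 100.1 FPKM against 90.3 to 132 FPKM. The part of these markers in the result was not tested beyond the covariate. Among the further genes of these neurons, Pdyn (-0.77), the kainate receptor subunit Grik3 (-0.89) and 5 of 13 genes of both pathways were lower, including Gnal, the stimulatory G protein alpha subunit of the striatum (-0.59), Adcy5 (-0.54) and Pde1b (-0.49).

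F1 IUO against F1 SAL asks what in utero exposure changes in the exposed pups. No member passed an unadjusted p under 0.05 in limma, against 3.91% of 17380 genes, and no gene of any kind had an adjusted p under 0.05. The log2 fold changes, Bcl11b aside, ran from -0.10 ± 0.27 for Meis2 to 0.26 ± 0.24 for Foxp1. Foxp1 was 48.7, 33.9, 29.6 and 29.3 FPKM in F1 IUO and 19.8, 29.8, 42.7 and 27.4 FPKM in F1 SAL. Without F1 SAL replicate 1 or without F1 SAL replicate 3, 1 member passed. None of the further projection neuron genes passed either. Of the marker lists, 4 of 6 hypothalamus genes (Oxt 1.81, Hcrt 3.301 and Avp 1.996 foremost) and the haemoglobin genes Hbb (2.10) and Hba-a2 (1.98) were higher in IUO.

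In the F2 generation the pups had no drug of their own, and the lineages were compared with F2 SAL to ask whether the exposure of the F0 dams shows in the next generation. Ppp1r1b was 196, 301, 167 and 401 FPKM in F2 IUO and 472, 447, 400.4 and 361 FPKM in F2 SAL, a log2 fold change of -0.74 ± 0.25 (adjusted p = 0.543 by limma). Of the 4 F2 IUO libraries, replicate 4 lay within the saline range and the other three lay below it. Pde10a was 7.57, 19.6, 10.9 and 9.95 FPKM in F2 IUO and 23.2, 18.0, 20 and 15.1 FPKM in F2 SAL (-0.74 ± 0.27, adjusted p = 0.556), with replicate 2 of F2 IUO inside the saline range. Adora2a was 26.6, 55.2, 27.7 and 57.8 FPKM in F2 IUO and 65.15, 69.3, 53.6 and 50.9 FPKM in F2 SAL (-0.60 ± 0.27, unadjusted p = 0.0509), so 2 of the libraries were near the saline levels and the other two far below.

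These 2 members of 9, both lower, compare with 8.49% of 17097 genes tested and 4.97% lower, and the groups overlapped for every member, against 2.74% of genes that were lower without overlap. The median log2 fold change was -0.39 over the members and -0.08 over all genes. The count was 4 without F2 IUO replicate 2, and 1 without F2 IUO replicate 1 or without F2 SAL replicate 1. Among the further genes, the D1 dopamine receptor Drd1 (-0.65) and the muscarinic receptor Chrm4 (-0.55) of the direct pathway, Six3 (-0.60) of the indirect pathway, and 5 of 13 genes of both pathways were lower, including Gnal (-0.72), Adcy5 (-0.61) and the G protein gamma subunit Gng7 (-0.79). Sfxn1, a mitochondrial serine transporter listed with the direct pathway, was higher (0.26). Of the 6 cortical excitatory neuron markers 4 were higher in F2 IUO, with a summed level of 175 to 349 FPKM against 134 to 220 FPKM, among them Neurod6 (1.33) and Emx1 (0.99), while none of the 6 thalamus markers passed. Of 5 microglia genes 2 were lower (P2ry12 -1.02 and Cx3cr1 -0.65), at a summed 85.5 to 132 FPKM against 106 to 145 FPKM. Of 3 erythroid rows tested 2 were higher, both under the symbol Hba-a2 (1.97 and 1.66), and of 4 pan-neuronal genes Snap25, of the synaptic vesicle release machinery, was higher (0.69). The part of these markers in the result was not tested.

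Between F2 PNO and F2 SAL no member passed an unadjusted p under 0.05 in limma, against 10.8% of 17367 genes (1 gene had an adjusted p under 0.05). Pde10a was 4.57, 16.1, 15.6 and 26.8 FPKM in F2 PNO, a spread that took in the whole saline range. The count became 2 without F2 PNO replicate 1 and 1 without F2 PNO replicate 4. Of the further genes Chrm4, Six3 and Adcy5 were lower. Among the markers, Rbfox3 (-0.46), Tubb3 (-0.64) and Cx3cr1 (-0.57) were lower and Pmch (2.52) and both Hba-a2 rows (1.58 and 1.42) higher. Between F2 IUO and F2 PNO no member passed either, against 7.07% of 17090 genes, with log2 fold changes from -0.47 ± 0.28 for Ppp1r1b to -0.14 ± 0.30 for Gpr6 outside Bcl11b. That count became 2 without F2 IUO replicate 4 and 1 without F2 IUO replicate 2 or F2 PNO replicate 4. Gnal (-0.55) and Gng7 (-0.57) were lower in F2 IUO than in F2 PNO, and the markers Agrp (1.59) and Snap25 (1.08) were higher.

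**Figure D2:**
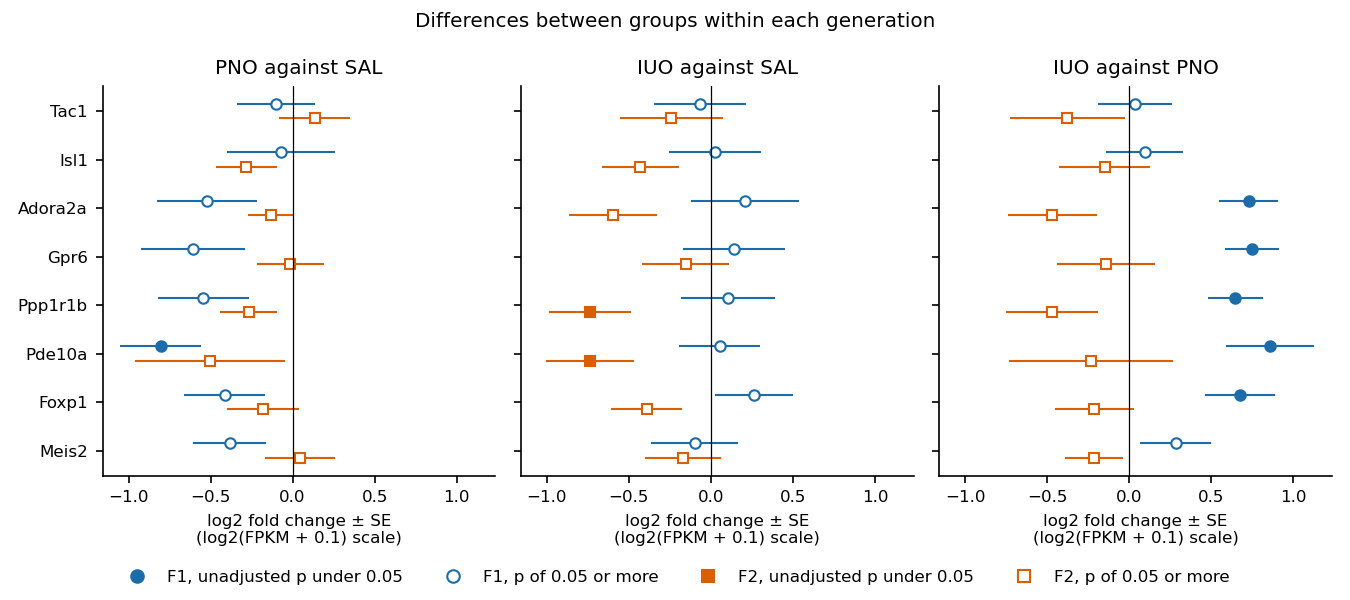
Log2 fold change ± SE of 8 members (y axis) between groups of the same generation, on the log2(FPKM + 0.1) scale, for PNO against SAL, IUO against SAL and IUO against PNO; blue circles are F1, orange squares F2, and filled symbols passed an unadjusted p under 0.05. Bcl11b is left out. In the right panel the 5 filled F1 symbols lie between 0.65 and 0.86, and the F2 symbols lie below 0.

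Since the comparison of IUO with PNO pointed in opposite directions in the generations, the difference itself was tested as an interaction over 16 libraries. It passed an unadjusted p under 0.05 in 4 of the 9 members, against 5.87% of 17032 genes, and no gene passed an adjusted p under 0.05. Subtracting the F1 from the F2 log2 fold change gave -1.20 ± 0.35 for Adora2a (adjusted p = 0.771), -1.12 ± 0.35 for Ppp1r1b (0.772), -0.89 ± 0.36 for Gpr6 (0.816) and -0.89 ± 0.34 for Foxp1 (0.816). For Pde10a it was -1.09 ± 0.62, for Tac1 -0.41 ± 0.45 and for Isl1 -0.24 ± 0.37, none of which passed. The interactions of IUO with SAL and of PNO with SAL passed in no member, against 5.17% and 3.9% of genes.

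F2 was also set directly against F1 within each exposed lineage, and no member had an adjusted p under 0.05 in either. F2 pups were bred from F1 animals, so generation cannot be told apart from the time of birth and dissection. In the in utero lineage 4 of the 9 members passed, all lower in F2, against 15% of 16916 genes, 9.65% of them lower. Pde10a had a log2 fold change of -1.22 ± 0.30 (12.01 against 27.3 FPKM in mean, adjusted p = 0.221 by limma), Foxp1 -0.76 ± 0.22 (adjusted p = 0.236), Adora2a -0.79 ± 0.29 (0.264) and Ppp1r1b -0.72 ± 0.27 (0.265). For Foxp1, the F2 IUO libraries were 21.3, 28.1, 20.03 and 14.4 FPKM, all below the lowest F1 IUO library at 29.3 FPKM, against 7.24% of genes that were lower without overlap. The count fell to 2 without F2 IUO replicate 3, without F1 IUO replicate 1 or without F1 IUO replicate 2. Of the further genes Drd1 (-0.73), 3 of 6 of the indirect pathway (Grik3 -0.93, Six3 -0.59 and Penk -0.76) and 7 of 13 of both pathways were lower in F2, among them Adcy5 (-0.84), Gnal (-0.81) and Gng7 (-0.92), and 2 of the 6 cortical markers, Neurod6 (0.74) and Emx1 (0.87), were higher. Snap25 (0.67) was also higher, and P2ry12 of microglia (-0.79) and Flt1 of vessels (-0.69) were lower.

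In the postnatal lineage 2 members passed, both higher in F2 than in F1, against 4.76% of 17370 genes, 2.13% of them higher. These were the indirect-pathway genes. Adora2a was 64.1, 50.4, 48.1 and 55.4 FPKM in F2 PNO, above all 4 F1 PNO libraries (log2 fold change 0.41 ± 0.14, adjusted p = 0.948). Gpr6 was 22.3, 12.3, 13.7 and 14.3 FPKM, likewise without overlap (0.66 ± 0.21, adjusted p = 0.908), against 1.46% of genes that were higher without overlap. The shared gene Ppp1r1b had a log2 fold change close to that of Adora2a but did not pass (0.40 ± 0.18, unadjusted p = 0.0558 by limma). For Ppp1r1b, 3 of the 4 F2 PNO libraries lay above all F1 PNO libraries, so the threshold alone does not set the indirect pathway apart. Of the further genes Drd2, the D2 dopamine receptor (0.56), Penk (0.45) and Pdyn (0.76) were higher. Of the 6 thalamus markers 3 were lower in F2, at a summed 30.7 to 201 FPKM against 117 to 304 FPKM, and with their level as a covariate neither member passed (0.22 for Adora2a and 0.51 for Gpr6). These 3 were Lhx9 (-2.16), Gbx2 (-2.35) and Lef1 (-1.05), and of the other markers Chat (-0.67) and Tubb3 (-0.56) were lower and Pmch (2.79) and Csf1r (0.36) higher. Between the saline groups of the generations no member passed, against 8.48% of 17497 genes, and the nearest was Pde10a at -0.43 ± 0.19 (unadjusted p = 0.0547). Without F2 SAL replicate 1 or without F1 SAL replicate 1, 1 member passed.

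Over the 81 pairs of a member and a comparison, the exact permutation test reached its smallest value, 0.0286, in 6: Adora2a, Gpr6 and Ppp1r1b in F1 IUO against F1 PNO, Adora2a and Gpr6 in F2 PNO against F1 PNO, and Foxp1 in F2 IUO against F1 IUO. The smallest Benjamini-Hochberg value over the 81 was 0.386.

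Ratios of genes within a library compare the pathways with each other, and 6 were computed, as descriptions without a test. Adora2a stood to Tac1 at 0.75, 0.68, 0.81 and 0.64 in the F1 PNO libraries and at 1.18, 0.99, 1.30 and 1.21 in F1 IUO. Gpr6 stood to Tac1 at 0.18, 0.17, 0.17 and 0.16 in F1 PNO, and these 4 were the lowest of all 24 libraries, the next being F2 PNO replicate 2 at 0.181. In F1 IUO the same ratio was 0.235 to 0.324 and in F1 SAL 0.206 to 0.301. Adora2a over Tac1 did not set F1 PNO apart in this way. It was 0.757 in F1 SAL replicate 1, against 1.004 to 1.083 in the rest of F1 SAL, and in F2 PNO it was 0.695, 0.743, 0.728 and 1.24, so both groups overlapped with F1 PNO. It was 0.659 to 0.960 in F2 IUO, which also overlapped, and 0.900 to 1.12 in F2 SAL.

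The genes of the indirect pathway also parted from each other. Gpr6 stood to Adora2a at 0.401, 0.337, 0.325 and 0.351 in F2 IUO, against 0.257, 0.266, 0.258 and 0.257 in F2 SAL and 0.204 to 0.278 over the F1 libraries. F2 PNO replicate 1, at 0.348, was the only library outside F2 IUO above 0.286. In the same F2 IUO libraries Gpr6 itself overlapped with F2 SAL (9.02 to 20.3 against 13.1 to 18.5 FPKM). Adora2a stood to Ppp1r1b within a narrower band, 0.133 to 0.186 over all 24 libraries.

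**Figure D3:**
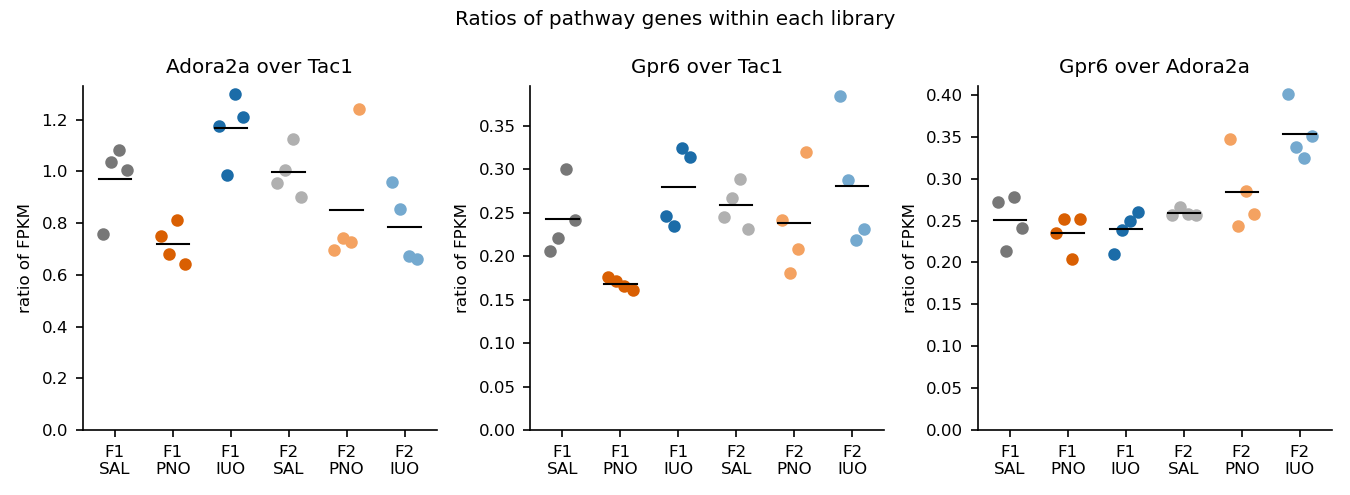
Ratio of FPKM values within each library (y axis, from 0) for Adora2a over Tac1, Gpr6 over Tac1 and Gpr6 over Adora2a, by group on the x axis; each point is 1 library and bars are means of 4. The F1 PNO libraries are the 4 lowest of Gpr6 over Tac1 (0.161 to 0.176), and F2 IUO lies at 0.325 to 0.401 in Gpr6 over Adora2a, where F2 SAL is at 0.257 to 0.266.

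Across the 24 libraries the closeness of members followed their division by pathway only in part. Correlations are of log2(FPKM + 0.1), libraries share group, dissection and normalisation, and p values come from 100000 permutations adjusted over 52 relations (the smallest they can give before adjustment is 1e-05). Bcl11b was left out because its values lie in 2 ranges. Adora2a and Ppp1r1b, 1 of them an indirect-pathway gene and the other shared, were the closest pair (Pearson's r = 0.955, Spearman's rho = 0.953, adjusted permutation p = 0.000104 for both). Their r was 0.937 without the 2 libraries farthest from the median of Adora2a, and 0.943 after centring on group means. Gpr6 correlated with Adora2a at r = 0.870 (rho = 0.886) and with Ppp1r1b at 0.836 (rho = 0.830).

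Tac1, the direct-pathway peptide, went with Meis2 (r = 0.798, rho = 0.801, adjusted permutation p = 0.000104) and with the indirect-pathway genes Adora2a (0.762) and Gpr6 (0.724), rather than with Isl1 of its own pathway (r = 0.265, rho = 0.221, adjusted permutation p = 0.28). Isl1 had no relation with any member at an adjusted p under 0.05, and its highest r was 0.425, with Ppp1r1b. Pde10a and Foxp1 were also close (r = 0.832, rho = 0.889, adjusted permutation p = 0.000104), at 0.918 without the 2 farthest libraries and 0.759 after centring. Before centring both also correlated with other members, while after centring Pde10a kept an adjusted permutation p under 0.05 with Foxp1 alone. Foxp1 correlated with Adora2a at r = 0.663 (adjusted permutation p = 0.00121, and 0.0311 after centring) and with Ppp1r1b at 0.548 (0.0155, and 0.161 after centring). Pde10a correlated with Adora2a at 0.568 (0.0119, and 0.108 after centring) and with Ppp1r1b at 0.458 (0.0435, and 0.401 after centring). With Tac1 the r was 0.189 for Pde10a and 0.240 for Foxp1, and neither passed, nor did Pde10a with Gpr6 (0.274). In all, 18 of the 28 pairs had an adjusted p under 0.05.

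The genes outside the 9 whose pattern was most like each member, by Pearson's r over the 24 libraries among 13668 genes with a mean of at least 1 FPKM, were as follows. Adora2a was most like Drd2 (0.935) and the signalling regulator Rgs9 (0.925). Ppp1r1b was most like Rgs9 (0.947), the ion channel subunit Asic4 (0.900) and Gng7 (0.893). Gpr6 was most like the retinoid receptor Rxrg (0.890), Pdyn (0.888) and Drd2 (0.882). Tac1 was most like the homeodomain factor Pbx3 (0.832), the retinoic acid receptor Rarb (0.815) and Penk (0.811), and Meis2 also had Pbx3 first (0.869), then Rab40b (0.844) and Rxrg (0.83).

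Pde10a was most like the kinase anchoring protein Akap5 (0.931), the transcription factor Foxo1 (0.928) and the sialyltransferase St8sia3 (0.925), none of which is in the projection neuron lists. Foxp1 was most like the nuclear pore gene Nup210 (0.864), Ccdc88c (0.838) and the growth factor Tgfa (0.836). Isl1 had the weakest likeness, with Ecel1 (0.689), the GABA-synthesising enzyme Gad2 (0.673) and Pcp4l1 (0.666). These values describe pattern over the same 24 libraries.

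**Figure D4:**
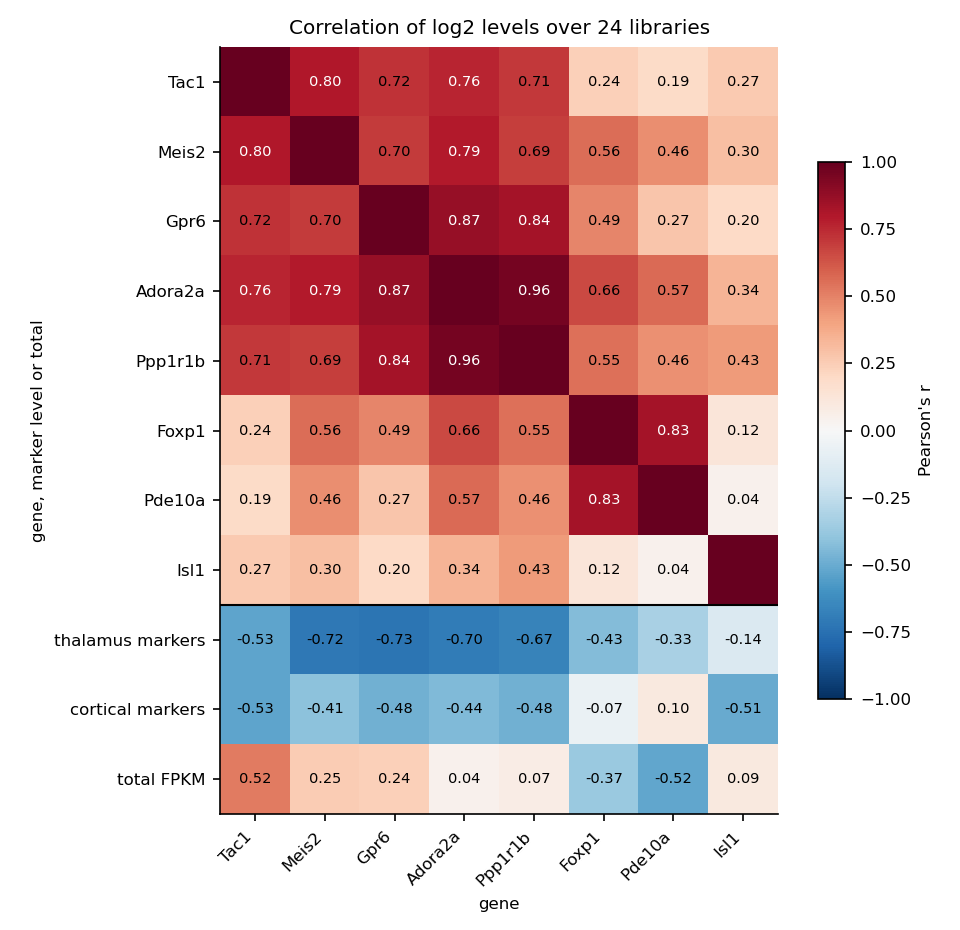
Pearson's r of log2(FPKM + 0.1) over the 24 libraries between 8 members (columns) and, in rows, the same members, the mean level of thalamus and of cortical markers, and the total FPKM of the library; red is positive and blue negative. Adora2a and Ppp1r1b (0.955) and Pde10a and Foxp1 (0.832) are close pairs, Isl1 stays below 0.43 with every member, and the thalamus row is negative throughout.

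Genes of neighbouring tissue varied between libraries, and of these only the thalamus and cortical markers were set against the members by correlation. No marker list of cortex, thalamus, hypothalamus or choroid plexus had a gene at 0 in every library. The mean thalamus marker level correlated with Gpr6 (r = -0.732, rho = -0.753), Meis2 (-0.716, -0.751), Adora2a (-0.699, -0.757), Ppp1r1b (-0.666, -0.655) and Tac1 (-0.529, -0.502), each with an adjusted permutation p of 0.0197 or less for r. It did so less closely with Foxp1 (-0.435), Pde10a (-0.327) and Isl1 (-0.143), where the adjusted p was above 0.05. Without the 2 farthest libraries and after centring on group means, the same 5 genes had an adjusted p under 0.05. The cortical marker level had negative relations with Tac1 (-0.529), Isl1 (-0.507), Gpr6 (-0.482) and Ppp1r1b (-0.478), but 1 of the 4 was left without the 2 libraries farthest from the median, where the value for Gpr6 was -0.0046. After centring on group means, Tac1 (-0.494), Isl1 (-0.540) and Gpr6 (-0.553) had an adjusted permutation p under 0.05 and Ppp1r1b (-0.443) did not. These centred p values make no allowance for the group means, and that of Tac1 was 0.0323. Choroid plexus markers ran from a summed 5.58 to 12257 FPKM over the 24 libraries. Whether these markers account for the members' values was not tested.

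The total of all FPKM values in a library ran from 535866 to 766781, and the number of sequenced fragments is unknown. The highest totals were those of F2 PNO replicate 1 and F2 IUO replicate 4. In these 2 libraries Pde10a was 4.57 and 9.95 FPKM and Foxp1 18.1 and 14.4 FPKM, while Ppp1r1b was 473 and 401 FPKM and Tac1 92.25 and 87.6 FPKM. Pde10a stood to Ppp1r1b at 0.0097 and 0.0248 there, against 0.0387 to 0.0868 in the other 22 libraries. Over all libraries the total correlated with Pde10a (r = -0.521, rho = -0.437, adjusted permutation p = 0.0228 for r) and Tac1 (r = 0.520, rho = 0.504, adjusted permutation p = 0.0198 for r), and neither passed once the 2 farthest libraries were left out (-0.371 and 0.386). After centring on group means, Pde10a did not pass (-0.313), while Tac1 (0.633), Meis2 (0.501) and Gpr6 (0.481) had an adjusted permutation p under 0.05. Those of Meis2 and Gpr6 were 0.0319 and 0.0376, and with no allowance for the group means they are uncertain.

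**Figure D5:**
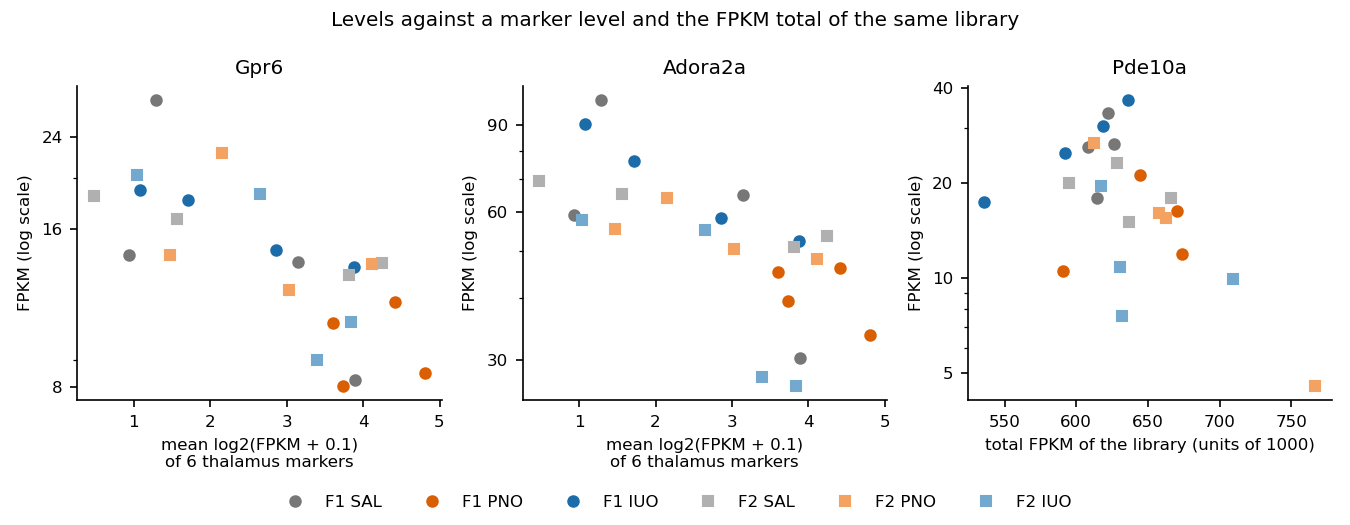
FPKM of Gpr6 and Adora2a (y axis, log scale) against the mean log2(FPKM + 0.1) of 6 thalamus markers in the same library, and FPKM of Pde10a against the total FPKM of the library, in units of 1000; each point is 1 of 24 libraries, circles F1 and squares F2. The 4 F1 PNO libraries lie at a thalamus marker level of 3.61 to 4.81, and F2 PNO replicate 1 has the highest total and the lowest Pde10a (4.57 FPKM).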

How the data were processed

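RNA-Seq of P14 NAc was analysed for 24 libraries, 4 in each of 6 groups set by the labels. The authors deposited FPKM values per gene from StringTie, made on a transcriptome merged over the samples and rounded to 2 decimals. HISAT2, StringTie, edgeR and SAMtools stand in the submitters' processing notes without versions or roles, and the genome build of the files is not given in the sources used here. FPKM are not counts, so depth is unknown, no counting interval is given, and a common scale over libraries is assumed.

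Comparisons used limma 3.58.1 in R 4.3.3 (eBayes with a trend) on log2(FPKM + 0.1), with genes at 0.1 FPKM or more in at least 4 of the 8 libraries (8 of 16 for interactions), and Benjamini-Hochberg adjustment over all genes tested. Fold changes on this scale understate those of low genes. A gene passed at an unadjusted p under 0.05, two-sided. Single members were tested by exact permutation over 70 splits, and relations by 100000 permutations in Python 3.11.15 with numpy 2.4.6, pandas 2.3.3 and scipy 1.17.1. Figures used matplotlib 3.10.9. The limma step was run on simulated data, and how often it recovered changes as small as those of the members is not reported here.

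All 9 members were tested in each comparison, and all 9 passed the filter in every one. From each other list, up to 3 genes with the smallest p under 0.05 were named, and for each member the 3 genes of highest r, except for results that are not reported here. Members and lists were chosen with earlier results of these data known. Alternatives were another pseudocount and filter, upper-quartile rescaling, 1 fit of all libraries, a replicate block and leaving out each library, and, chosen after seeing the data, rescaling by total FPKM, a thalamus marker covariate and leaving out 2 F2 libraries. Replicate numbers are not stated to pair the libraries. In 0 of 9 comparisons did every same-numbered pair deviate together at r over 0.1 (r from -0.357 to 0.186 over 13551 genes). In F1 IUO against F1 PNO the values for replicates 1 to 4 were 0.125, 0.157, 0.114 and -0.0588. This rule does not settle whether the numbers pair. No 2 libraries were identical, and the highest r between libraries was 0.968. The labels name no batch. Dlx6 and Pecam1, which the marker lists include, have no value here.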

Additional observations from a re-analysis of the deposited data

Results flagged for a closer look

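Bcl11b was set apart by 1 library in 3 of the groups of 4. The gap from the highest library to the next, as a share of the group's range, was 0.971 in F1 PNO (replicate 1, 28.45 FPKM), 0.974 in F2 SAL (replicate 4, 17.2 FPKM) and 0.953 in F2 PNO (replicate 4, 17.8 FPKM), above Dixon's limit for 4 samples. Over the 54 sets of a member and a group, 3 passed this limit, where chance alone flags about 1 in 20, or 2.7.

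In 4 members the difference between IUO and PNO pups was not the same in F2 as in F1, by an interaction test in limma at an unadjusted p under 0.05, against 5.87% of 17032 genes. The F2 minus the F1 log2 fold change was -1.20 for Adora2a, -1.12 for Ppp1r1b, -0.89 for Gpr6 and -0.89 for Foxp1, and none had an adjusted p under 0.05 (0.771, 0.772, 0.816 and 0.816).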

How the results depend on the processing

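Of 232 recomputed fold changes of the 14 member and comparison pairs that passed, 213 kept their direction and an unadjusted p under 0.05, 19 kept the direction only, and 0 reversed. No member had an adjusted p under 0.05 in any of 164 recomputed counts, summed over 12 comparisons and interactions. Upper-quartile rescaling shifted all genes by -0.12 (log2) in F1 IUO against F1 PNO and against F1 SAL and by -0.17 in F2 IUO against F2 PNO, and total FPKM by 0.12 in F1 IUO against F1 PNO and by -0.12 in F2 against F1 IUO. In all other comparisons the shift was under 0.1.

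The counts of members that passed changed by over 1.5 times as follows. With all 24 libraries in 1 fit they were 2 for F1 PNO against SAL, 1 for F2 against F1 PNO and 1 for the IUO against SAL interaction. With the thalamus marker level as a covariate the comparisons of IUO with PNO gave 1 in F1 and 1 in F2, that of F1 PNO with SAL gave 0, and those of F2 with F1 gave 1 in SAL and 0 in PNO. Upper-quartile rescaling gave 1 for F2 IUO against PNO and 1 for F2 against F1 SAL. Rescaling by total FPKM gave 1 for F2 PNO against SAL, 1 for F2 against F1 SAL and 2 for the IUO against SAL interaction. Without the 2 F2 libraries of largest total, F2 PNO against SAL gave 2 and F2 IUO against PNO gave 1. The cause was not tested in any of these.

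With same-numbered libraries as a replicate block, F2 IUO against SAL gave 4 members and F2 against F1 PNO gave 3, and no other count changed. The numbers are not stated to pair the libraries.

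Leaving out 1 library at a time, the counts ranged from 5 to 5 in F1 IUO against PNO, 0 to 1 in F1 IUO against SAL, 1 to 6 in F1 PNO against SAL, 1 to 4 in F2 IUO against SAL, 0 to 2 in F2 PNO against SAL, 0 to 2 in F2 IUO against PNO, 0 to 1 in F2 against F1 SAL, 2 to 3 in F2 against F1 PNO and 2 to 4 in F2 against F1 IUO. Without the 2 farthest libraries the relations with an adjusted p under 0.05 were 1 of 8 for cortical markers and 0 of 8 for total FPKM.

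With 4 libraries a group, unknown depth and no sex given, values near the threshold depend on single pups.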
